A study of Drosophila melanogaster with 2 samples.

Results

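The I element, Rt1b and Fw3 are non-LTR retrotransposons outside the telomeric HeT-A group, and their listed insertions in ovaries of *Drosophila melanogaster* are described here. Members were all entries whose name before the braces was I, I-element, Rt1b or Fw3. They were 13 of the 184 distinct insertions, and of the 296 distinct features (genes, insertions and piRNA cluster strands), in 4 of the 5 deposited lists of features that differed between genotypes; the other list, of piRNA cluster strands, held 0 insertions and was not used. They comprised 11 I insertions, 1 Rt1b insertion and 1 Fw3 insertion. The ovaries came from flies 3 to 5 days old, kept at 25 °C, with 1 or both copies of CG5508 carrying the z3-5967 mutation (heterozygous or homozygous flies). CG5508 is the gene minotaur (mino), which the study's title places in primary piRNA production. Both groups thus carried the mutant allele, and a wild-type group was not analysed here. With 1 library for each genotype nothing below could be checked in replicates, and no p-value was computed.

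Non-LTR retrotransposons move by copying their RNA into DNA directly at a new genomic site, and many copies are truncated at the 5′ end. In the fly ovary they are held down by piRNAs, small RNAs bound by Piwi proteins that guide silencing of matching transcripts. The I element is the agent of I-R hybrid dysgenesis, a female sterility that follows when fathers carry active I elements and mothers lack matching maternal piRNAs. Rt1b belongs to the R1 clade of such elements, and Fw3 is named among elements related to the F element of the jockey clade.

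The lists were made with uniquely mapped reads or with reads of up to 10 mappings. With up to 10 mappings, the per-library columns are headed zucMUT and zucCD, names of neither sample. The genotypes of those lists were therefore taken from the list names, which give homCG5508. The value of 1 read was close between the treatments. It was 1.156 (unique mapping) and 1.159 normalized reads (up to 10 mappings) in the heterozygous library, and 0.865 and 0.863 in the homozygous one. For the members listed in both treatments, unique counts were below the counts with up to 10 mappings in the same genotype. These values go with the same libraries in both treatments, but no label states it. In the lists with unique mapping, the features held 67961 heterozygous and 85648 homozygous reads; total depth was not known. Mino was in none of the lists, so its level could not check the genotype labels. Of 8 ovary markers, the chorion genes Cp15 and Cp38 were listed as lower, with summed levels of 11923 normalized reads in the heterozygous and 4191 in the homozygous library. The others, which included the germline genes vas, nos and osk and the follicle cell gene tj, were in neither list with unique mapping, and their levels were not analysed here. All 4 fat body markers (Lsp2, Lsp1alpha, Lsp1beta and Fbp1) were higher, with a sum of 49.7 against 727 normalized reads. All 3 muscle markers (sls, Mlc2 and Act87E) were higher, with 1012 against 3136. These markers were chosen with earlier results of these data known, so their counts are a description and not a test. No defining marker of fat body or muscle was at 0. Their part in the results below was not tested. In these bulk samples, more cells that express an element and more RNA per cell cannot be told apart.

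Insertions of all 3 families were listed as higher in homozygous ovaries, only 1 each for Rt1b and Fw3, and none was listed as lower. With unique mapping, 2 members were listed, Rt1b{}1666 and Fw3{}4489, where 0.339% of 5896 insertions annotated in the dm6 genome build were listed as higher. The list with up to 10 mappings held 3.09% of annotated insertions, and all 13 members were in it, which follows in part from their choice among listed entries. By family, 11 of 38 annotated I copies (28.9%), 1 of 60 Rt1b copies (1.67%) and 1 of 7 Fw3 copies (14.3%) were in that list. The annotated copies are those of dm6 and not the set that the authors tested, and I copies share reads, so the I count is not a count of independent events.

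**Figure D1:**
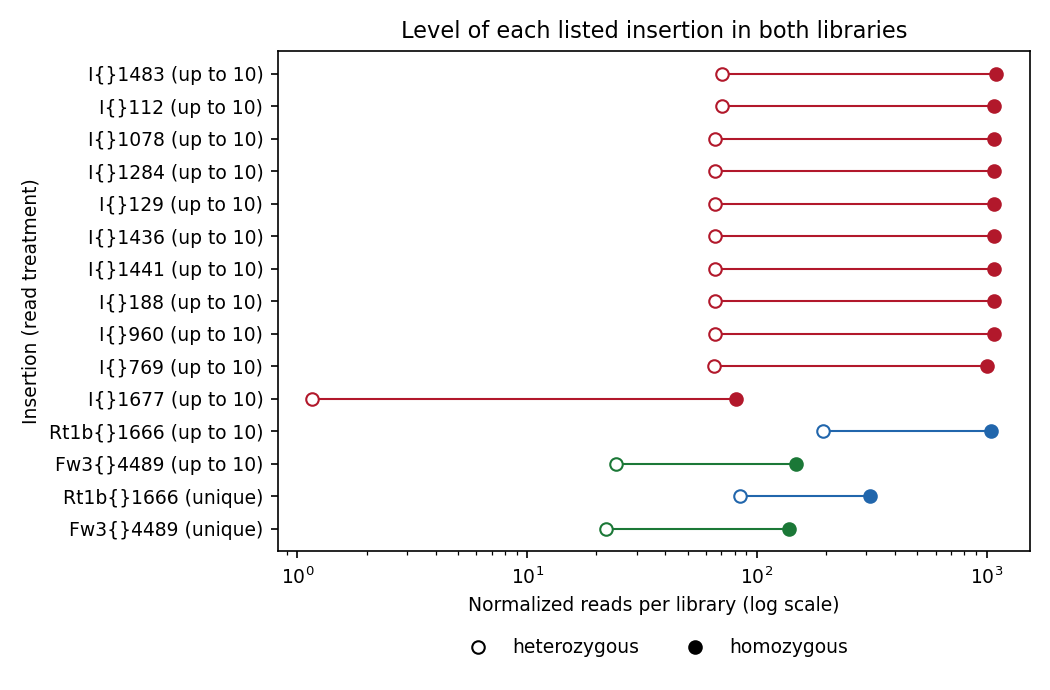
Normalized reads (x axis, log scale) of each listed insertion (y axis, with the read treatment) in the heterozygous (open) and homozygous (filled) library, I in red, Rt1b in blue and Fw3 in green; values with up to 10 mappings are those implied by the deposited mean and fold. In every line the homozygous point lies to the right, which follows from the choice of insertions listed as higher. Of the 11 I insertions, 10 sit at nearly the same pair of values.

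The I element had the largest folds of the 3 families and was listed with up to 10 mappings alone. Per the authors' deposited table, 10 of its 11 insertions had means over both libraries from 534 to 583 normalized reads and rose 15.3-fold to 16.3-fold. Of these, 7 carried identical values, a mean of 572 and a fold of 16.3, with an adjusted p of 4.17e-15 in the authors' deposited table. That mean and fold imply 66.1 normalized reads (57 reads) in the heterozygous and 1078 (1249 reads) in the homozygous library. The exact 95% interval of the fold on those reads, which covers counting error only, was 12.5 to 21.7. These counts are 1 set of reads shared by the 7 entries, and they do not show a rise at each copy.

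The 7 insertions with identical values lay on the X chromosome and on both arms of chromosome 3 in dm6. I{}129 lay on X from 14636525 to 14641895 and I{}188 on X from 20957045 to 20962415. I{}960 lay on 3L from 8791331 to 8796682 and I{}1078 on 3L from 21365893 to 21371264. On 3R lay I{}1436 from 27725626 to 27730996, I{}1441 from 28068558 to 28073928 and I{}1284 from 10255433 to 10257395. Except for I{}1284, which spans 1963 bases in dm6, they spanned 5352 to 5372 bases. No other family of the list had as many insertions at 1 value, and the next was diver, with 4. Insertions with equal values cannot be told apart by these counts, so which of these copies gave rise to the reads is not known.

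Another 3 I insertions stood close to that shared value, and of these I{}769 differed from it most. I{}1483, on chromosome 4 from 76554 to 81921, had a mean of 583 normalized reads and a 15.5-fold rise in the authors' deposited table. These values imply 1269 homozygous and 61 heterozygous reads, 20 and 4 more than the shared counts. I{}112, on X from 12168193 to 12173562, rose 15.3-fold at a mean of 576 in the authors' deposited table, with 5 homozygous and 4 heterozygous reads above the shared counts. I{}769, on 2R from 7608472 to 7613604, rose 15.5-fold at a mean of 534 in the authors' deposited table, with 1163 homozygous and 56 heterozygous reads. Its differences from the shared counts were -86 homozygous and -1 heterozygous reads. The intervals of the 3 folds, in the same order, were 12.0 to 20.4, 11.8 to 20.1 and 11.8 to 20.6. Such copies can share most of their reads, so these intervals do not bear on whether the copies differ.

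I{}1677 differed from the other I insertions in level. It lies on 2L from 21413146 to 21416189, spans 3044 bases and contains a short invader2 insertion on the opposite strand; its nearest gene in dm6, His1:CG33801 of the histone cluster, lies 764 bases away. Its mean in the authors' deposited table was 41.1 normalized reads, rank 181 of the 184 listed insertions, and its fold of 70.0 was rank 20. The mean and fold imply 94 homozygous reads and a single heterozygous read, the smallest count above 0. The interval of its fold ran from 12.3 to 2794 and held the folds of all the other I insertions. With a pseudocount of 10 normalized reads added to both libraries the ratio was 8.17. Per kilobase of annotated span, its homozygous level was 26.6 normalized reads, against 201 for I{}129. The reads of I{}129 are the set shared by 7 insertions, so 201 is not the level of that copy alone.

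**Figure D2:**
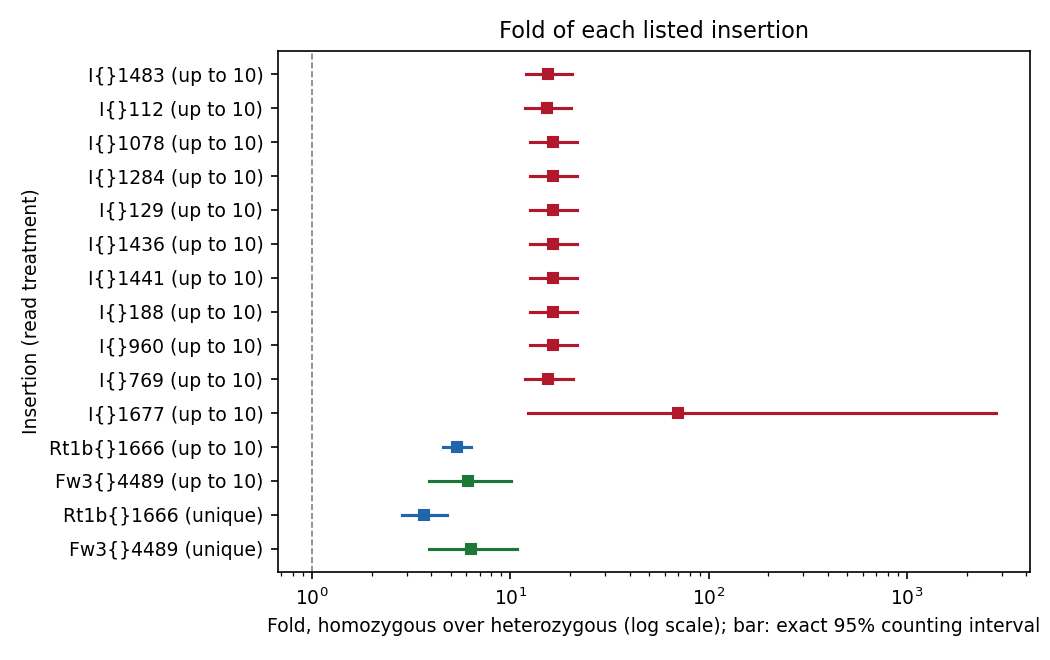
Fold of homozygous over heterozygous reads (x axis, log scale) of each listed insertion (y axis), with exact 95% counting intervals as bars and a dashed line at 1. Every interval lies above 1, which the choice of insertions listed as higher favours. Those of the I insertions lie above those of Rt1b{}1666 and Fw3{}4489, and I{}1677, with 1 heterozygous read, has the widest.

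The I copies in the list were mostly the long ones. In dm6, 10 of the 38 I copies exceed 5000 bases, and 9 of these were listed; of the 28 shorter copies, 2 were listed, I{}1677 and I{}1284. The 27 copies that were not listed had a median length of 492 bases. Listed copies were found on X (3 of 9), 2L (1 of 7), 2R (1 of 10), 3L (2 of 3), 3R (3 of 7) and 4 (1 of 2). The levels of copies that were not listed were not analysed here.

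**Figure D3:**
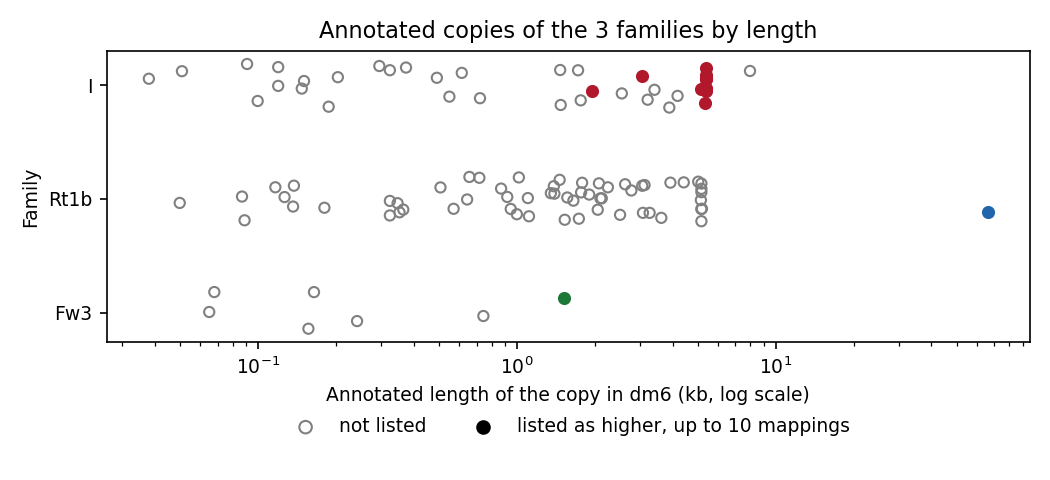
Annotated length in dm6 (x axis, kb, log scale) of every copy of the 3 families (y axis; points are spread vertically within a family for visibility), filled where the copy was listed as higher with up to 10 mappings. Of 10 I copies over 5 kb, 9 were listed; the listed Fw3 and Rt1b copies are the longest annotated ones of their families.

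Of the 11 listed I insertions, 7 lie within a gene in dm6, 6 on the gene's strand and 1, I{}1441 in trv, on the opposite strand. Of these genes, 4 were listed as higher with up to 10 mappings, and each of them holds its I copy in an intron and on its own strand. NetA, which encodes the axon guidance cue Netrin-A and contains I{}129, had a mean of 583 normalized reads and a 13.8-fold rise in the authors' deposited table. CG1358, named HisT in dm6, contains I{}769 and rose 10.6-fold at a mean of 570 in the authors' deposited table. Sirt6, a sirtuin gene that contains I{}1284, rose 6.41-fold at a mean of 700 in the authors' deposited table. Pan, the TCF transcription factor gene of the Wnt pathway, contains I{}1483 and rose 4.17-fold at a mean of 868 in the authors' deposited table. None of the 4 genes was listed with unique mapping.

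The reads of these genes were set against those of their I insertions. With the reads of the insertion subtracted, NetA kept 10 homozygous and 11 heterozygous reads, CG1358 45 and 29, Sirt6 155 and 106, and pan 354 and 229. The corresponding ratios of normalized reads were 0.677 (0.258 to 1.76) for NetA, 1.16 (0.709 to 1.91) for CG1358, 1.09 (0.845 to 1.41) for Sirt6 and 1.15 (0.972 to 1.37) for pan, and each interval included 1. The subtraction holds only if every read of the insertion was also counted for the gene, which is not stated. The genes Ten-a (with I{}112) and Fhos (with I{}960) hold an I copy on their own strand and were not listed, so listing of the host was not a property of all such genes. I{}960 overlaps 116 exonic bases of Fhos, and the other copies within genes were intronic. I{}188, I{}1436, I{}1078 and I{}1677 lie in no annotated gene; I{}188 ends 190 bases from Ser6, a serine protease gene, which was not listed.

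Rt1b was represented by 1 insertion in both treatments. Rt1b{}1666, on the plus strand of 2R from 6256173 to 6322173 in dm6, stood at 84.4 (heterozygous) and 310 (homozygous) normalized reads with unique mapping, from 73 and 358 reads. It rose 3.67-fold (2.84 to 4.78), which was the smallest fold of the 20 insertions listed with unique mapping. The authors' deposited table with up to 10 mappings gave a 5.35-fold rise (interval on implied reads 4.55 to 6.33) at a mean of 618 normalized reads, rank 160 by fold of 184 insertions. The implied counts were 168 heterozygous and 1207 homozygous reads. Unique reads thus made up 43.5% of the heterozygous and 29.7% of the homozygous count. The additional 95 heterozygous and 849 homozygous reads had a ratio of 6.66 (5.38 to 8.32), whose interval did not overlap that of the unique reads.

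The span of Rt1b{}1666 is not a simple copy of the element. It extends over 66001 bases, while the longest Rt1b copy that was not listed has 5195, and 28 other insertions of 21 families lie wholly inside it, 14 of them on the same strand. These cover 94.0% of the span and leave 3957 bases that belong to no other annotated insertion. No gene overlaps it, and the nearest gene, Pld, lies 907 bases away. Its homozygous level per kilobase of span was 4.69 normalized reads with unique mapping, against 91.1 for Fw3{}4489, a comparison that the nested insertions limit.

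Of the 28 nested insertions, 3 were listed as higher with up to 10 mappings. GATE{}1713, an LTR element on the same strand, had a mean of 328 normalized reads and a 6.87-fold rise in the authors' deposited table, with 664 implied homozygous and 72 heterozygous reads. Max{}2206 lies within GATE{}1713 on the same strand and rose 5.02-fold at a mean of 122 in the authors' deposited table, with 236 and 35 reads. Gypsy12{}2214, on the opposite strand, rose 8.71-fold at a mean of 2583 in the authors' deposited table, with 5370 homozygous reads, more than the 1207 of the Rt1b span around it. With unique mapping gypsy12{}2214 likewise held more homozygous reads (445) than Rt1b{}1666, but fewer heterozygous ones (42 against 73). Since gypsy12{}2214 held more homozygous reads than the span in both treatments, not all of its reads were counted for Rt1b{}1666. The sources used here do not say whether the authors' counting used strand or left out nested features. How many of the reads of Rt1b{}1666 came from Rt1b sequence is therefore not known. The nested copies Rt1b{}710 and Rt1b{}725, both on the opposite strand, were not listed.

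**Figure D4:**
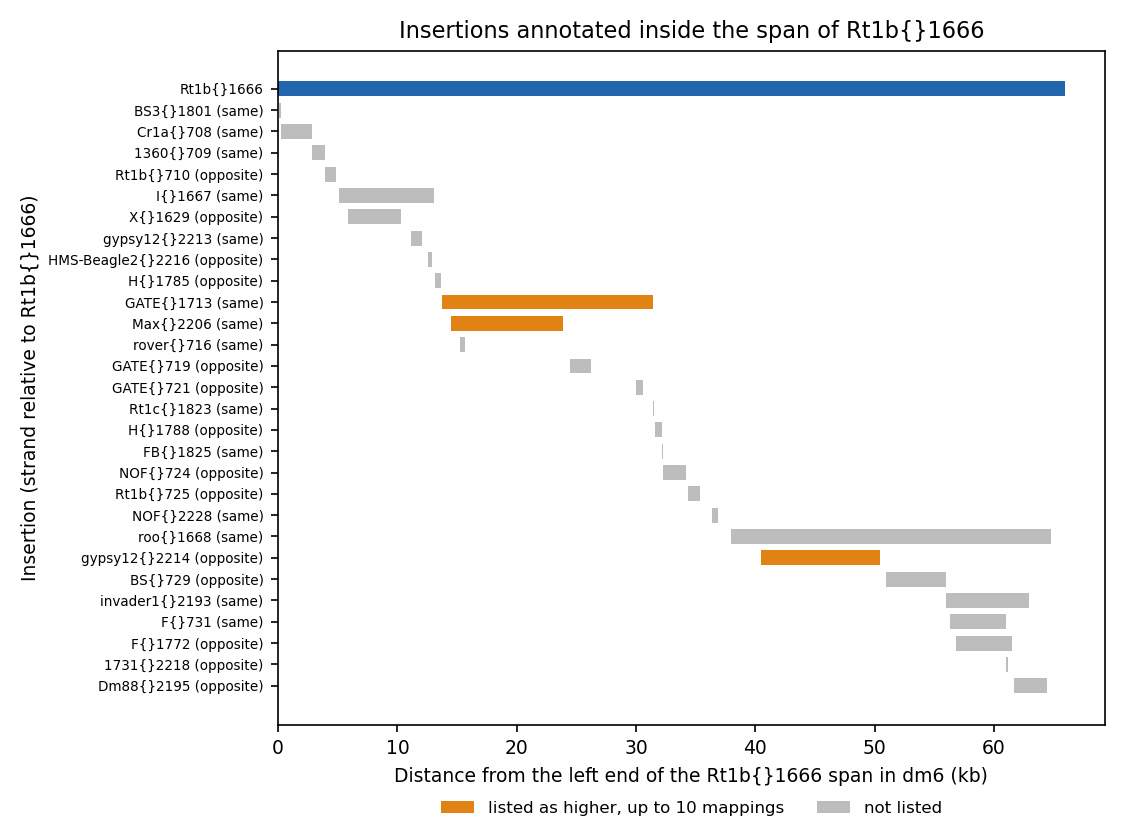
Span of Rt1b{}1666 in dm6 (blue) and the 28 insertions annotated inside it, by distance from its left end (x axis, kb), each with its strand relative to Rt1b{}1666 in brackets (y axis). Orange bars are the 3 insertions listed as higher with up to 10 mappings, and grey bars were not listed; nested insertions fill 94.0% of the span.

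Rt1b{}1666 lies on the chromosome arm that carries the germline piRNA cluster 42AB, a locus built of nested transposon fragments. The coordinates of the cluster were not analysed here, so an overlap with Rt1b{}1666 was not tested. In the list with unique mapping, 42AB rose 2.81-fold on its minus and 2.52-fold on its plus strand.

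Fw3 was likewise represented by 1 insertion in both treatments. Fw3{}4489, on the minus strand of 3L from 23085382 to 23086899 in dm6, spans 1518 bases and overlaps no other annotated insertion and no gene. The nearest gene, RpL10 of the large ribosomal subunit, lies 6291 bases away and was not listed. With unique mapping Fw3{}4489 held 22.0 normalized reads in heterozygous and 138 in homozygous ovaries, from 19 and 160 reads, a 6.30-fold rise (3.90 to 10.7). Counted with up to 10 mappings, it rose 6.10-fold in the authors' deposited table at a mean of 86.4, with an interval on implied reads of 3.87 to 10.1. Each fold lay within the interval of the other, but most reads are common to both counts. The intervals therefore do not measure error in the difference. The reads of Fw3{}4489 added with up to 10 mappings had a ratio of 4.47 (0.995 to 41.1).

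Between the members in both lists, the values of Fw3{}4489 moved less with the read treatment than those of Rt1b{}1666. It gained 2 heterozygous and 12 homozygous reads with up to 10 mappings, so unique reads were 90.5% and 93.0% of the counts. Its mean grew 1.08 times, against 3.14 times for Rt1b{}1666 and a median of 3.42 times over the 20 insertions in both higher lists, of which 2 grew by less than Fw3{}4489. The other 6 Fw3 copies in dm6 span 65 to 744 bases, and none was listed. Its adjusted p in the authors' deposited table was 0.0671 with unique mapping and 0.0513 with up to 10 mappings, where the largest values in those lists were 0.0801 and 0.0985. The adjusted p of Rt1b{}1666 in the authors' deposited table was 0.0469 with unique mapping and 1.92e-06 with up to 10 mappings.

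Set against the other listed features, Rt1b{}1666 and Fw3{}4489 rose less than most insertions, and 10 of the 11 I insertions rose by about the median. With unique mapping, 75.4% of the 57 higher features and 95.0% of the 20 higher insertions rose at least 4-fold; of the members, Fw3{}4489 did and Rt1b{}1666 did not. Of the list with up to 10 mappings, 85.6% of 271 higher features and 95.7% of 184 insertions did, and so did all 13 members, a share near that background. An adjusted p under 0.01 was held by 61.4% of the higher features with unique mapping and by 0 of 2 members in the authors' deposited table, and by 83.4% of the higher features and 12 of 13 members with up to 10 mappings. The median fold over all insertions was 21.1 with unique mapping and 15.4 with up to 10 mappings, taken over the authors' deposited table. In that table Fw3{}4489 ranked 155 and Rt1b{}1666 ranked 160 of 184 by fold, while the 7 I insertions with identical values shared rank 81. The fold intervals of the I insertions with up to 10 mappings lay above those of Rt1b{}1666 and Fw3{}4489, which overlapped each other. That comparison covers counting error in these libraries only.

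**Figure D5:**
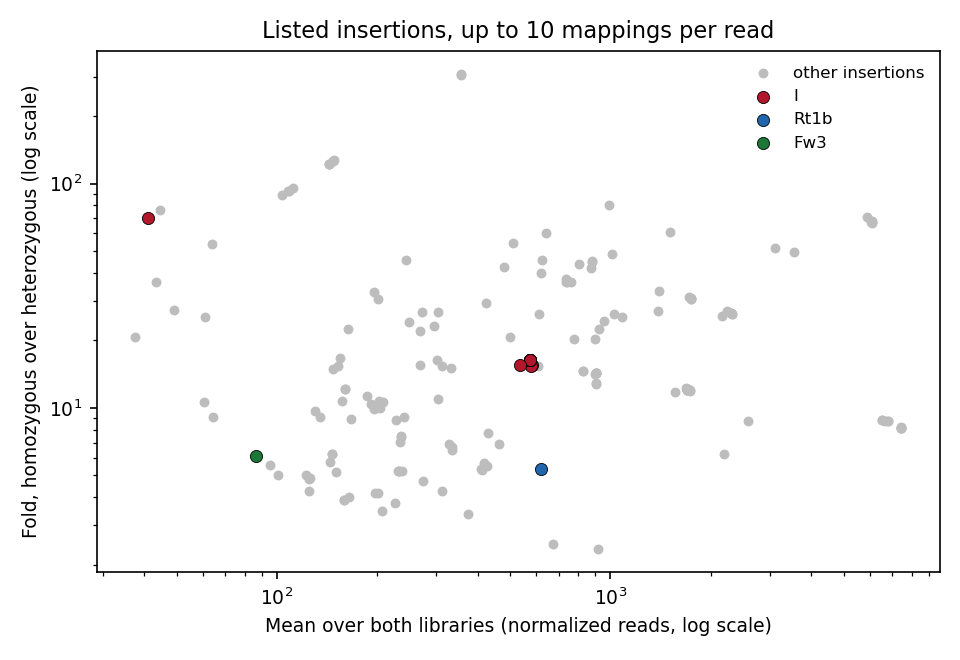
Fold (y axis, log scale) against the mean over both libraries (x axis, normalized reads, log scale) for the insertions that the authors' deposited table lists under up to 10 mappings, except 4 listed at 0 in heterozygous ovaries. I insertions cluster near 16-fold with I{}1677 apart at 70.0-fold, and Rt1b{}1666 (5.35) and Fw3{}4489 (6.10) lie in the lower part.

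The listed features nearest to the members in both libraries were also taken, by distance on the log2 scale over the 2 libraries with unique mapping. For Fw3{}4489 these were CG10249 (22.0 heterozygous and 144 homozygous normalized reads), the DNA transposon transib4{}1579 (23.1 and 172) and the larval serum protein gene Lsp1beta (17.3 and 157). For Rt1b{}1666 they were cbt, a zinc finger transcription factor gene (67.1 and 288), bru-3, an RNA-binding protein gene (110 and 393), and the nested gypsy12{}2214 (48.6 and 385). With up to 10 mappings, the only feature outside the 3 families within 5% of a member in both mean and fold was HMS-Beagle{}1266, an LTR insertion, at a mean of 607 and 15.4-fold in the authors' deposited table, near I{}1483. Likeness over 2 libraries describes level and fold alone.

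Of 37 other non-LTR families looked up, 34 had insertions under that name in dm6, 978 in all. With unique mapping 1 of these families, HeT-A of the telomeres, was listed as higher, with 9 of 27 insertions and a median of 54.5-fold. With up to 10 mappings 4 families were, among them HeT-A with 16 insertions and a median of 44.2-fold. None of the families was listed as lower. HeT-Tag, with 6 insertions listed under up to 10 mappings, was not among the families looked up. In the authors' deposited table the F element, of the jockey clade, rose 22.4-fold at 1 of 87 annotated insertions, with a mean of 922 normalized reads. Ivk was listed with 3 of 13 insertions and a median of 12.2-fold, and Porto1 with 1 of 7 at 20.6-fold and a mean of 37.6 in the authors' deposited table. Of the R1-related families Rt1a and Rt1c, with 30 and 33 annotated insertions, none was listed, nor was Fw2 with 9. The same held for jockey with 96, Doc with 81 and Cr1a with 152 insertions. Their levels were not analysed here, so absence from the lists does not show that a family was unchanged.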

How the data were processed

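RNA-seq libraries of total ovary RNA were primed with not-so-random primers, per the labels' protocols. Tools named, without roles, in the submitters' processing notes are DESeq 1.8.2, TopHat 1.4.1, Bowtie 0.12.8 and bedtools, with build dm3. The signal deposited by the authors is a normalized read count, per the file headers. Their fold, a ratio of the heterozygous to the homozygous value per the file headers, was inverted here. The deposited log2 values are the log2 of that ratio, and the raw and adjusted p-values are the authors' own. With up to 10 mappings, 4 per-library columns had names of neither sample and were not used; library values were computed from the deposited mean and fold. Reads were recovered by dividing by the value of 1 read, 1.16 normalized reads in the heterozygous library of both treatments, and 0.865 (unique mapping) or 0.863 (up to 10 mappings) in the homozygous one. All 143 and 394 entries of each library were whole within 0.01 read. Folds carry exact conditional binomial (Clopper-Pearson) 95% intervals from scipy 1.17.1, tested on simulated data, which cover counting error only. With up to 10 mappings, reads are shared between copies, so intervals of different copies are not independent. Positions come from Ensembl release 115 (dm6), matched by FlyBase identifier; 182 of 184 insertions matched, and none was converted from dm3. A feature is 1 gene, insertion or cluster strand, by its entry with the highest mean. Members and lists were chosen with earlier results of these data known. All members were named, together with overlapping listed features and hosts, the 3 nearest features with unique mapping, features within 5% with up to 10 mappings, and other non-LTR families. Alternatives were adjusted p under 0.01, at least 4-fold, a mean of at least 50, pseudocounts of 1 and 10, no size factor and identical values counted once. Duplicate libraries could not be looked for, with 1 library per genotype.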

Additional observations from a re-analysis of the deposited data

How the results depend on the processing

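No paired analysis was possible because only 1 library per genotype exists in these data, and for the same reason no library could be left out. Of the members listed with unique mapping, 0 of 2 passed an adjusted p of 0.01 in the authors' deposited table, which 61.4% of higher features passed, and 1 of 2 rose at least 4-fold. With up to 10 mappings 12 of 13 members passed that adjusted p, against 83.4% of higher features, and 7 were left when insertions with identical values were counted once, an alternative chosen after seeing the data. The fold of Rt1b{}1666 with unique mapping moved from 3.67 to 5.35 with up to 10 mappings and to 4.90 from reads without size factors; the second follows from leaving out the scaling, and the cause of the first was not tested. A pseudocount of 10 took I{}1677 from 70.0-fold to 8.17-fold, below its counting interval. The other alternatives run for Rt1b{}1666, Fw3{}4489 and the family medians kept those values within their counting intervals, among them 4.64-fold for Fw3{}4489 with a pseudocount of 10 and 15.5-fold for the I element with identical values counted once. Depth limits I{}1677 most, since its fold rests on 1 heterozygous read.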

Other observations

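These observations were singled out after their values were seen, and their causes were not tested. I{}1284 carried the same read counts as 6 I copies of 5352 to 5372 bases, although dm6 gives it 1963 bases. In dm6 it is named I{}Sirt6-iso-1a and is followed, at the next base, by another I copy, I{}Sirt6-iso-1b, of 3407 bases on the opposite strand. Together they span 5370 bases, and the second was in none of the lists. The authors' build was dm3, whose annotation was not used here.

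The I copy with the longest annotated span in dm6 was the only one over 5000 bases that was not listed. I{}1667 spans 7966 bases and lies inside the span of Rt1b{}1666 on the same strand. It contains the insertions X{}1629 (4454 bases), gypsy12{}2213 (903 bases) and HMS-Beagle2{}2216 (336 bases). Its span is therefore not the length of its I sequence, and it need not be a long I copy. Of the 9 Rt1b copies with annotated spans over 5000 bases, 1 was listed, the 66001-base span of Rt1b{}1666 with its nested insertions, against 9 of 10 I copies.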
